A study of Mus musculus with 10 samples.

Results

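The guanylate-binding proteins (Gbp) are large GTPases that cells make after exposure to interferon, above all interferon gamma. They coat bacteria and parasite vacuoles and help to activate inflammasomes, the caspase platforms that release interleukin-1 and interleukin-18. Neutrophils, the cells measured here, meet interferon in inflamed tissue and tumours. The family members were the 10 mouse genes Gbp2, Gbp2b, Gbp3, Gbp4, Gbp5, Gbp6, Gbp7, Gbp8, Gbp9 and Gbp10, out of 55385 mouse genes in the deposited table. They were found by matching the table's Ensembl identifiers to symbols in GENCODE M21. All 10 were among the 11270 genes that passed the filter on low values. The members were selected on the measured values of these libraries: the family was chosen by its large rise in treated over naive libraries, so the treated against naive values below describe it and carry no test. The graft and interaction tests use the same libraries, so their p-values are not independent of that choice.

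Neutrophils bearing the Tomato reporter were isolated from squamous cell carcinomas (SCC) grafted on CatchupIVM-red mice, in which a red reporter and Cre recombinase sit in the neutrophil gene Ly6g. The grafts were either the parental Sox2low control cells or Sox2Hi cells, which carry more of the stem-cell transcription factor Sox2. All libraries carry C57 in their labels, and those of control grafts carry GFP where those of Sox2Hi grafts carry Sox2, without saying what either marks. The mice were left naive or were given an anti-PDL1 antibody with a CD40 agonist, an immunotherapy that lifts a checkpoint and stimulates antigen-presenting cells. Each graft gave 3 naive and 2 treated libraries, which makes 4 groups, and the study asked whether Sox2 in the tumour cells limits the interferon response of neutrophils. The labels do not give the age or sex of the hosts, how many animals made up a library, or whether replicates came from separate animals, so a p-value measures only the spread between these libraries.

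The libraries held 13815734 to 22986193 counts in all. The 12 neutrophil markers were each counted in every group, and their summed level ran from 10551 to 37804 CPM, the count scaled to a common library size with TMM factors from the tested genes. The 10 keratinocyte markers summed to between 753 and 3153 CPM and the 10 macrophage markers to between 846 and 1886 CPM. The Y-chromosome gene Ddx3y had at most 8 counts in 1 library of each group and at least 1007 in the others. This split is crossed with the 4 groups.

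Of the 10 members, 5 lie in a row on the plus strand of chromosome 3 (GRCm38): Gbp5 (142493978 to 142522344), Gbp7 (142530342 to 142550149), Gbp3 (142560026 to 142573209), Gbp2b (142594847 to 142619179) and Gbp2 (142620602 to 142638008). The other 5 lie on the minus strand of chromosome 5: Gbp8 (105014150 to 105139540), Gbp9 (105077630 to 105139539), Gbp4 (105115767 to 105139586), Gbp10 (105215699 to 105239533) and Gbp6 (105270702 to 105293698). The models of Gbp4, Gbp8 and Gbp9 share a first exon of 60 to 61 bases. Sequence likeness limits how well some members can be told apart. Of the 31-base words in Gbp10 exons, 89.8% also occur in another gene and 80.8% occur in Gbp6. In Gbp6 the figures are 74.3% for any other gene and 67.8% for the predicted gene Gm43302, which had at most 39 counts in any library. In Gbp8 31.1% of the words were shared with another gene. The other 7 members shared between 3.1% and 18.3%. The values of Gbp6 and Gbp10 are therefore uncertain as separate genes.

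RefSeq (GRCm38.p6) promoter windows matched 5 of the 10 members, all on chromosome 3, and these are shown because the whole family was higher with treatment. Each sequence below covers the 250 bases before a transcription start, on the plus strand. Capitals mark 2 motifs searched on both strands: the ISRE-type, GAAA and GAAA set apart by any 2 bases (TTTC and TTTC on the opposite strand), and the GAS-type, TTC and GAA set apart by any 3 bases. These are forms bound by transcription factors active in interferon responses.
Gbp5, chr3:142496684-142496933, plus strand: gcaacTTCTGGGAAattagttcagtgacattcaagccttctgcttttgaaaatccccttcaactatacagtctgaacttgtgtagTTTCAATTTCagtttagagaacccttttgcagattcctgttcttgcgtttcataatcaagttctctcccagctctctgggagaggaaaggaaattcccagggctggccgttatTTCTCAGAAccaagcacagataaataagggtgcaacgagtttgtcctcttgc
Gbp7, chr3:142530086-142530335, plus strand: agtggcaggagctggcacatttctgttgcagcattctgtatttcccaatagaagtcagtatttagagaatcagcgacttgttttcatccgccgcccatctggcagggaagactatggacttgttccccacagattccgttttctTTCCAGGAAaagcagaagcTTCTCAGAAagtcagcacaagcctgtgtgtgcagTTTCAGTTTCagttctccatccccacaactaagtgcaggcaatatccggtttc
Gbp3, chr3:142559794-142560043, plus strand: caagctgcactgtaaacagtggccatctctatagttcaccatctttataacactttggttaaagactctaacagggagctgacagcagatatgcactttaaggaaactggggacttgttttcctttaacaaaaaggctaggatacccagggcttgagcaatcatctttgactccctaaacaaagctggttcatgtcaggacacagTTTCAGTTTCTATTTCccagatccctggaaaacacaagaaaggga
Gbp2b, chr3:142594597-142594846, plus strand: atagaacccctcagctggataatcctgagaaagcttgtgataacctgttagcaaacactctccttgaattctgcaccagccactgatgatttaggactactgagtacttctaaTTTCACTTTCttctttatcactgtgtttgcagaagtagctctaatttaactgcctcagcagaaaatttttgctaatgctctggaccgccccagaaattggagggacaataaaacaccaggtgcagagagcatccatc
Gbp2, chr3:142620413-142620662, plus strand: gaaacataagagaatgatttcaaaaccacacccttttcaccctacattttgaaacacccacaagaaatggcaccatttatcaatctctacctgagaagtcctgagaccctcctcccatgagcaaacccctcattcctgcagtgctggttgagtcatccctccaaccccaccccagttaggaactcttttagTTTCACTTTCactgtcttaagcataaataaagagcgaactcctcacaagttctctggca

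All 5 windows shown hold at least 1 ISRE-type match, while 3.44% of 32851 promoter windows of 300 bases hold one. The window of Gbp3 holds 2 that overlap in the run TTTCAGTTTCTATTTC. GAS-type matches, found in 8.3% of all windows, occur in Gbp5 and Gbp7, with 2 in each. A further RefSeq start of Gbp3 has neither motif in its window. A match describes the letters alone.

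Levels are compared between members per kb of exon. In control naive neutrophils Gbp2 was by far the most abundant member at 602 ± 206 CPM per kb (SD, n = 3). Gbp2 is one of the members best known for inflammasome activation by bacteria. Gbp7, linked to assembly of the phagocyte oxidase, followed at 113 ± 30.3. Gbp3 stood at 44.5 ± 9.93, and Gbp9, Gbp4 and Gbp6 followed at 25.1 ± 8.34, 21.2 ± 6.96 and 16.3 ± 3.66. The library ranges of neighbouring members from Gbp3 to Gbp6 overlapped, so this part of the order is not resolved. Gbp8 stood at 7.30 ± 2.24. Gbp5, known for its role with Gbp2 and the Nlrp3 inflammasome, was at 3.03 ± 0.69, Gbp2b at 1.84 ± 0.853 and Gbp10 at 1.499 ± 0.349, with overlapping ranges. The background expected from the rate at silent receptor genes made up as much as 29.4% of the naive counts of Gbp10, 28.3% of Gbp2b and 14.8% of Gbp5. In the other 7 members that share was at most 5.97%.

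The same members led in Sox2Hi naive neutrophils, at 420.0 ± 103 CPM per kb for Gbp2 (n = 3) and 74.7 ± 19.0 for Gbp7. After treatment the order changed below Gbp2. In control treated neutrophils Gbp2 stood at 3493 ± 269 CPM per kb (n = 2), and Gbp4 at 577 ± 29.8 overlapped Gbp7 at 553 ± 7.25. Gbp6 at 345 ± 81.4 and Gbp8 at 284 ± 50.9 came next and overlapped each other, ahead of Gbp9 at 230 ± 12.8 and Gbp3 at 116 ± 2.66. In Sox2Hi treated neutrophils Gbp2 was at 2142 ± 737, Gbp7 at 331 ± 16.4 and Gbp4 at 302 ± 58.0 (n = 2). Gbp2b and Gbp5 were the lowest members in both treated groups.

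**Figure D1:**
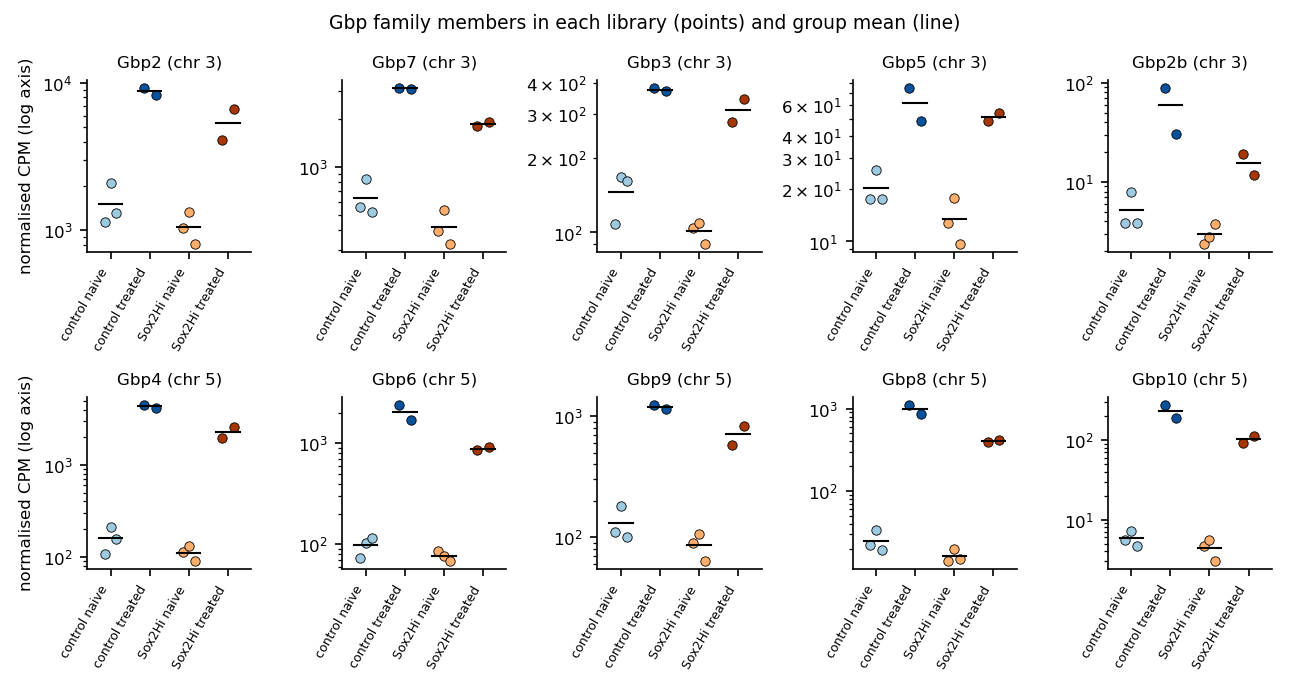
Normalised CPM (log axis) of each member in each library (points) with the group mean (line), for the 5 chromosome 3 members (top row) and the 5 chromosome 5 members (bottom row). All 10 members were higher in every treated than in every naive library of the same graft, an order shown by 29.6% of all genes tested in control and 37% in Sox2Hi grafts. Of the 10 members, 9 were lower in both Sox2Hi treated libraries than in both control treated ones, as were 26.2% of all genes.

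Under treatment all 10 members were higher in both grafts. Gbp2 measured 1133, 2106 and 1308 CPM in control naive libraries and 9267 and 8308 CPM in control treated ones. In Sox2Hi it measured 1035, 1327 and 808 CPM naive and 4079 and 6701 CPM treated. The treated libraries lay above all naive ones, and the Sox2Hi treated ones lay below the control treated ones. The log2 fold change was 2.54 (SE 0.317) in control and 2.35 (SE 0.315) in Sox2Hi grafts.

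Gbp4, a member of the chromosome 5 cluster, measured 108, 212 and 157 CPM in control naive and 4483 and 4167 CPM in control treated libraries. It measured 113, 131 and 89.2 CPM in Sox2Hi naive and 1957 and 2572 CPM in Sox2Hi treated libraries. The 4 groups separated by treatment, and the treated libraries separated by graft as well. The log2 fold changes were 4.76 (SE 0.292) in control and 4.35 (SE 0.288) in Sox2Hi grafts. Gbp8 measured 22.0, 33.9 and 19.5 CPM in control naive and 1102 and 854 CPM in control treated libraries. In Sox2Hi it measured 14.1, 19.7 and 14.9 CPM naive and 390.0 and 413 CPM treated. Its log2 fold changes of 5.28 (SE 0.263) and 4.63 (SE 0.257) were, with those of Gbp10 at 5.33 (SE 0.291) and 4.54 (SE 0.284), the largest of the family. Gbp10 shares most of its sequence with Gbp6, which gave 4.40 (SE 0.233) and 3.53 (SE 0.225).

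Gbp3 and Gbp5 responded least. Gbp3 measured 108, 167 and 161 CPM in control naive, 383 and 371 CPM in control treated, 105, 109 and 89.8 CPM in Sox2Hi naive, and 278 and 347 CPM in Sox2Hi treated libraries. Its log2 fold changes were 1.38 (SE 0.195) and 1.63 (SE 0.196). Gbp5 gave 1.62 (SE 0.269) and 1.94 (SE 0.271) from 9.66 to 25.4 CPM in naive libraries, and stood at 48.6 to 75.0 CPM in treated ones. Gbp2b, the gene formerly named Gbp1 in mice, gave 3.53 (SE 0.457) and 2.38 (SE 0.461). Its 2 control treated libraries were far apart at 89.0 and 30.7 CPM. Gbp7 gave 2.28 (SE 0.246) and 2.15 (SE 0.246), and Gbp9 gave 3.19 (SE 0.289) and 3.04 (SE 0.288).

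In edgeR 10 of 10 members passed an adjusted p under 0.05 as higher in control grafts, where 24.1% of all genes tested were called higher. In Sox2Hi grafts 10 of 10 passed, against 15.1% of all genes. These counts follow from how the family was chosen. The members' median log2 fold change was 3.36 in control grafts, where the median of all genes was -0.18, and 2.71 in Sox2Hi grafts, where it was 0.0903. The chromosome 5 members had medians of 4.76 and 4.35, and the chromosome 3 members 2.28 and 2.15. All 5 chromosome 5 members lay above 3.03 in both grafts. Of the chromosome 3 members, Gbp2b in control grafts at 3.53 was the one value above that level. In bulk RNA, fewer cells making a transcript and less transcript per cell cannot be told apart. Of the 12 neutrophil markers, 11 were also called higher with treatment in control and 8 in Sox2Hi grafts. Their summed level was 11702 to 19201 CPM in control naive, 36430 to 37804 in control treated, 10551 to 15214 in Sox2Hi naive and 19720 to 19841 in Sox2Hi treated libraries, and no marker was at 0 in any group. Of the 10 T and NK cell markers 6 were tested, with 4 called higher in control and 2 in Sox2Hi grafts. Their sums were 55.8 to 94.2 CPM in control naive, 130 to 446 in control treated, 39.3 to 131 in Sox2Hi naive and 164 to 267 in Sox2Hi treated libraries. Fibroblast and endothelial markers were called lower in 5 of 6 tested in control and 3 of 6 in Sox2Hi grafts. Their sums were 288 to 762 and 101 to 127 CPM in control naive and treated libraries, and 454 to 641 and 126 to 330 CPM in Sox2Hi ones. Mast cell markers were called lower in 3 of 3 tested in control and 0 of 3 in Sox2Hi grafts, with sums of 35.9 to 233 and 8.67 to 26.2 CPM in control naive and treated libraries and of 49.1 to 90.6 and 29.1 to 63.9 CPM in Sox2Hi ones. Keratinocyte markers were called lower in 4 of 10 in control and 1 of 10 in Sox2Hi grafts. Of all 11270 genes tested, 3743 were called lower with treatment in control and 742 in Sox2Hi grafts. Macrophage markers were called higher in 3 of 10 in control (Cd68, Fcgr1 and Csf1r) and 2 of 10 in Sox2Hi grafts (Fcgr1 and Csf1r), with sums of 846 to 1285 and 1172 to 1758 CPM in control naive and treated libraries and of 1203 to 1719 and 980.1 to 1886 CPM in Sox2Hi ones. Of the 3 dendritic cell markers tested, Cd209a was called lower in both grafts, and of the 5 B and plasma cell markers Igha was called lower in control grafts. The part of these shifts in the Gbp values was not tested.

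**Figure D2:**
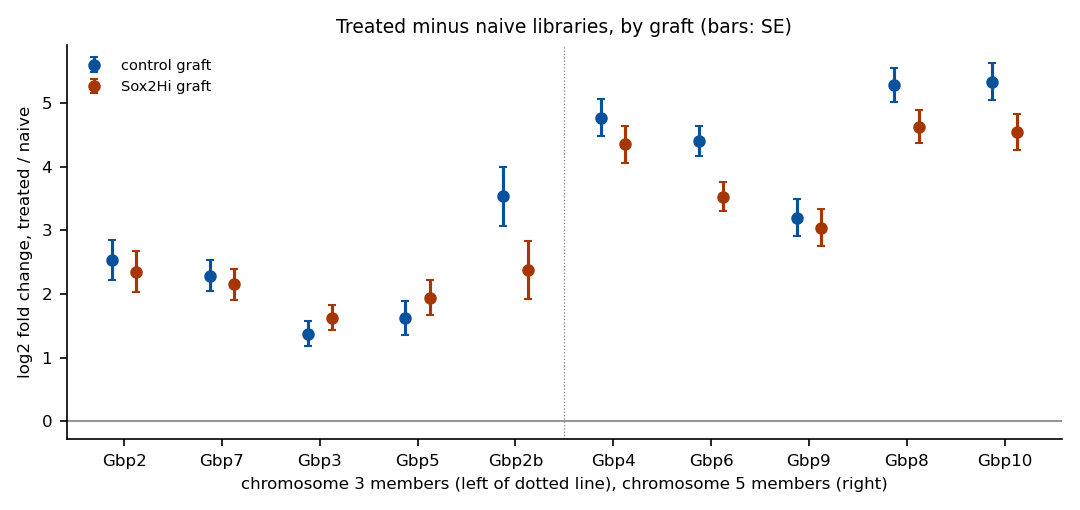
Log2 fold change of treated over naive libraries for each member (points) with its standard error (bars), in control and Sox2Hi grafts, with chromosome 3 members to the left and chromosome 5 members to the right of the dotted line. Gbp10 and Gbp8 had the highest values in both grafts, and Gbp3 the lowest.

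The make-up of the family, given as each member's share of the family's counts per kb, does not depend on how libraries are scaled. Gbp2 made up 71.6% ± 1.92 of the family in control naive (n = 3) and 72.4% ± 1.06 in Sox2Hi naive libraries (n = 3). In control treated libraries it made up 61.1% and 61.8%, and in Sox2Hi treated ones 60.2% and 67.7%. All 4 treated values lay below all 6 naive values, the lowest of which was 70.1%. Together the chromosome 5 members made up 8.66%, 8.11% and 9.10% in control naive libraries and 9.15%, 8.11% and 9.01% in Sox2Hi naive ones. They made up 27.0% and 25.5% in control treated and 24.3% and 20.5% in Sox2Hi treated libraries. The naive grafts overlapped, the treated libraries lay above all naive ones, and both Sox2Hi treated libraries lay below both control treated ones.

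Single members moved in the make-up to differing extents. Gbp4 went from 2.24% to 2.86% across naive libraries to 8.73% to 10.4% across treated ones. Gbp8 went from 0.721% to 0.994% to 3.05% to 5.30%. Gbp3 went the other way, from 4.498% to 6.75% in naive to 1.95% to 3.16% in treated libraries. Relative to its naive share, Gbp9 changed least of the chromosome 5 members, from 2.65% to 3.29% to 3.95% to 4.18%. Gbp10 held 4.004% to 7.53% as many counts as Gbp6 in naive libraries and 10.7% to 12.3% as many in treated ones, so this ratio did not stay fixed. The naive counts of Gbp10 were only 59 to 104, of which 16.3% to 29.4% is expected background. Most of its sequence is shared with Gbp6, and whether these genes change separately was not tested. Exon length sets the shares: with the longest transcript as length, the chromosome 5 share in control treated libraries was 32.4% in place of 26.3%.

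**Figure D3:**
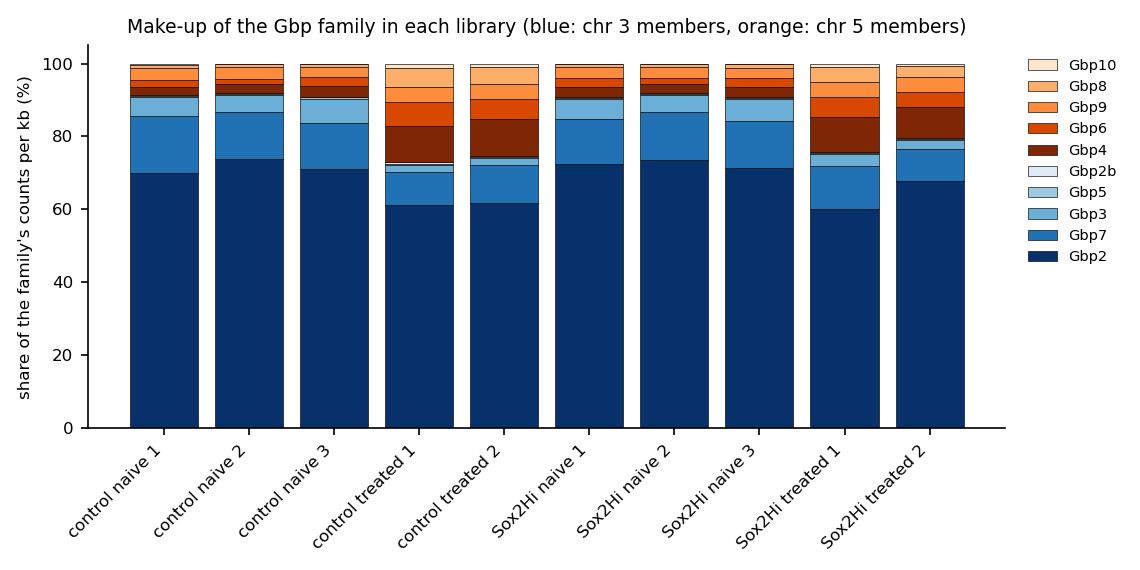
Share of the family's counts per kb of exon (%) taken by each member in each library, as stacked bars, with chromosome 3 members in blue and chromosome 5 members in orange. The orange part is 8.11% to 9.15% in naive and 20.5% to 27.0% in treated libraries.

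Between grafts, treated neutrophils of Sox2Hi tumours had lower levels of 5 members. Gbp6 was lower by a log2 fold change of -1.21 (SE 0.242, edgeR adjusted p = 0.0104), from 2397 and 1712 CPM in control to 857 and 918 CPM in Sox2Hi libraries. Gbp8 was lower by -1.28 (SE 0.264, adjusted p = 0.0111). Gbp10 was lower by -1.19 (SE 0.286, adjusted p = 0.0184), from 275 and 191 CPM to 91.6 and 113 CPM. Gbp2b was lower by -1.94 (SE 0.493, adjusted p = 0.0218), from 89.0 and 30.7 CPM to 19.2 and 11.9 CPM. Gbp4 was lower by -0.93 (SE 0.298, adjusted p = 0.0477). Of these 5, 4 belong to the chromosome 5 cluster, among them Gbp6 and Gbp10, which are uncertain as separate genes.

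The other 5 members did not pass. Gbp7 stood at 3133 and 3075 CPM in control and 1792 and 1922 CPM in Sox2Hi libraries, a difference of -0.74 (SE 0.272, adjusted p = 0.0759). Gbp9 gave -0.74 (SE 0.311, adjusted p = 0.111) and Gbp2 -0.71 (SE 0.347, adjusted p = 0.171). Gbp3 gave -0.27 (SE 0.217, adjusted p = 0.399) and Gbp5 -0.27 (SE 0.296, adjusted p = 0.552). Gbp5 was the one member whose libraries overlapped between grafts, at 75.0 and 48.6 CPM in control and 48.8 and 53.8 CPM in Sox2Hi. The other 9 were lower in both Sox2Hi libraries, an order that 26.2% of all genes tested also showed. Of all genes tested, 5.87% were called lower. The members' median was -0.84 and that of all genes 0.0405.

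With TMM factors from 29648 genes, here called the all-gene scaling, 8 members were called lower, where 9.57% of all genes were. The members added were Gbp2, Gbp7 and Gbp9, and the median was -1.28. The same 8 were called in DESeq2, against 16.2% of all genes, and with the title numbers as a replicate block, against 9.84%. Only 3 (Gbp6, Gbp8 and Gbp10) were called with the block by description number, against 3.75% of all genes, and with the treated groups fitted alone, against 1.7%. With background subtracted 2 were (Gbp6 and Gbp8), against 2.17%. The background expected from silent receptor genes was 1.35% and 1.21% of a library's counts in control treated, 4.02% and 3.27% in Sox2Hi treated, 4.18% to 6.71% in control naive and 3.02% to 3.13% in Sox2Hi naive libraries. Limma-voom, library totals and the title block on the treated groups alone each called 4, without Gbp4, against 3.93%, 1.58% and 2.42% of all genes. The count rests on few libraries: without Sox2Hi treated replicate 1 it was 0, without control treated replicate 1 it was 2 and without Sox2Hi treated replicate 2 it was 3. The shares of all genes called lower in these fits were 0.383%, 4.15% and 4.84%. Each of these fits leaves 1 library in a treated group, so the spread in that group is taken from the other groups alone. Within the libraries low in Ddx3y, 1 against 1, all 10 members were lower in Sox2Hi, by -0.15 to -2.91. Within those high in Ddx3y, also 1 against 1, 9 were lower by -0.41 to -1.13 and Gbp5 gave 0.0049. Both are single pairs of libraries without a share of all genes beside them, so these counts do not replicate the graft difference. Of the 12 neutrophil markers 4 were also called lower in Sox2Hi treated libraries, with the sums given above. Markers of other cell types were called higher there: 2 of 3 mast cell markers tested (Tpsb2 and Cma1), 2 of 10 keratinocyte markers (Cdh1 and Epcam), 1 of 6 fibroblast and endothelial markers (Col3a1) and 1 of 5 B and plasma cell markers (Igha). Of all 11270 genes tested, 1692 were called higher there. Keratinocyte sums were 753 and 1605 CPM in control treated and 1007 and 1598 CPM in Sox2Hi treated libraries, and the B and plasma cell sums also overlapped, at 39.9 to 121 and 27.3 to 192 CPM. The mast cell sums given above did not overlap. No T and NK cell marker was called. The 10 T and NK cell markers summed to 130 and 446 CPM in control treated and 267 and 164 CPM in Sox2Hi treated libraries, with none at 0. The part of these lists in the Gbp values was not tested.

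**Figure D4:**
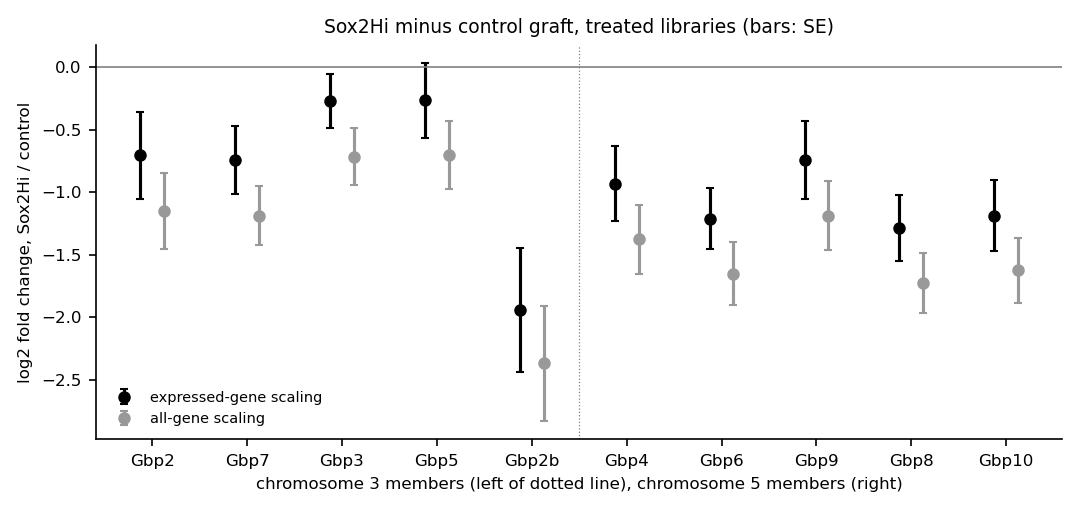
Log2 fold change of Sox2Hi over control grafts in treated libraries for each member (points) with its standard error (bars), under the scaling from 11270 expressed genes (black) and the all-gene scaling (grey). All points lie below 0 under both, and the all-gene values are lower for each member.

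In naive neutrophils no member passed in edgeR. All 10 estimates were lower in Sox2Hi, between -0.34 for Gbp6 and -0.79 for Gbp2b, with adjusted p from 0.077 to 0.377 and a median of -0.56 against -0.0469 for all genes. Of all genes 11.9% were called lower. At an unadjusted p under 0.05 there were 5 members (Gbp3, Gbp5, Gbp7, Gbp8 and Gbp9), against 26.6% of all genes in either direction. DESeq2 called 0, where it called 10.8% of all genes lower, and limma-voom 1, Gbp8, against 24.1%. Gbp2b, at 3.82, 7.98 and 3.81 CPM in control and 2.36, 2.81 and 3.79 CPM in Sox2Hi libraries, was the one member whose groups did not overlap, an order found in 21.8% of all genes. With the title numbers as a replicate block, 2 members were called lower, Gbp7 and Gbp9, where 14% of all genes were, and on the naive libraries alone 4 of the 9 members tested (Gbp5, Gbp7, Gbp8 and Gbp9), where 14.6% were. A block by the numbers in the sample descriptions called 2 different members, Gbp5 and Gbp8, where 10.8% of all genes were called lower.

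The size of the naive difference moved with the scaling. Under the all-gene scaling the median was -0.18, the range ran from -0.38 to 0.0237, Gbp6 had the positive sign, and 0 members passed. Control naive replicate 2 was the highest control naive library for 9 members, with Gbp6 as the exception. Without it the median was -0.25 and 0 members passed. Without control naive replicate 1 Gbp3 was called, where 5.86% of all genes were called lower, and without control naive replicate 3 Gbp8 was, where 14.2% were. No marker of the 8 cell types was called between naive grafts. The 5 B and plasma cell markers summed to 80.0 to 148 CPM in control and 227 to 791 CPM in Sox2Hi naive libraries, which did not overlap, and their part in the Gbp values was not tested.

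**Figure D5:**
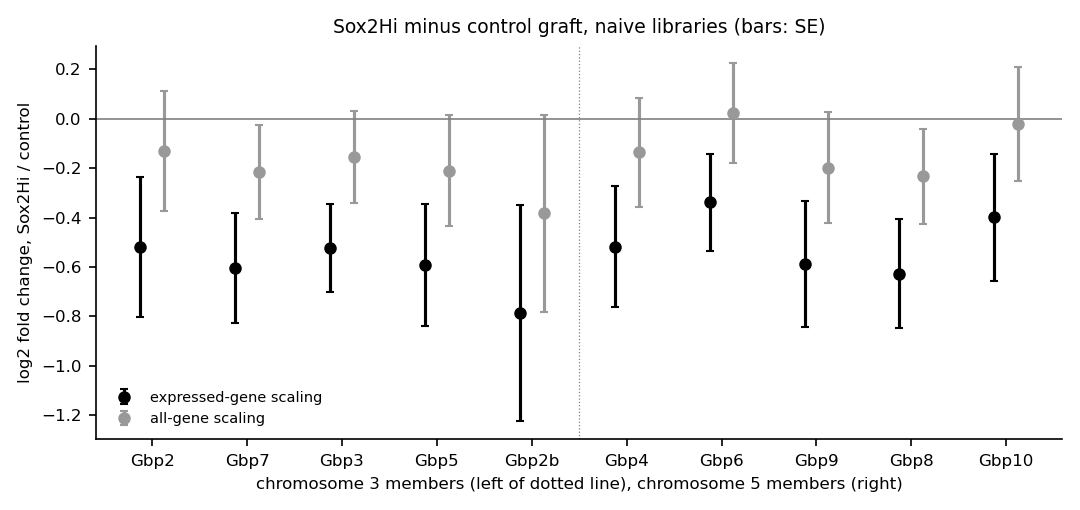
Log2 fold change of Sox2Hi over control grafts in naive libraries for each member (points) with its standard error (bars), under the scaling from 11270 expressed genes (black) and the all-gene scaling (grey). The black points lie between -0.79 and -0.34 and the grey ones between -0.38 and 0.0237.

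The interaction asks whether the response to treatment differed between grafts. No member passed in edgeR, where 2.87% of all genes were called lower, and 1 member, Gbp6, had an unadjusted p under 0.05, as did 32.5% of all genes. Gbp6 had the smallest adjusted p, with a smaller response in Sox2Hi by -0.87 (SE 0.310, adjusted p = 0.0731). Gbp2b gave -1.16 (SE 0.650, adjusted p = 0.253), Gbp10 -0.79 (SE 0.384, adjusted p = 0.184) and Gbp8 -0.66 (SE 0.340, adjusted p = 0.212). Gbp3 and Gbp5 had the positive sign, at 0.25 (SE 0.280) and 0.32 (SE 0.386), and the median was -0.30. This call depended on the scaling: under the all-gene scaling 6 members passed (Gbp2b, Gbp4, Gbp6, Gbp7, Gbp8 and Gbp10), where 16.2% of all genes were called lower, and Gbp3 and Gbp5 turned negative. DESeq2 called 2, Gbp6 and Gbp10, against 15.1% of all genes, and limma-voom 1, Gbp6, against 5.85%. With single libraries left out 0 to 2 members passed: 2 without control treated replicate 2, where 8.12% of all genes were called lower, 1 without control naive replicate 2 (6.5%) and 1 without control naive replicate 3 (2.15%). The 12 neutrophil markers had a median interaction of -0.85, with none called, and 1 of 3 mast cell markers tested was called higher (Cma1, 3.83, adjusted p = 0.029). Of all 11270 genes tested, 1909 were called higher in the interaction. The part of these markers in the Gbp values was not tested.

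Genes that lie above and beside the family in the interferon pathway were taken from 4 lists. Ifng, the gene for interferon gamma, was too low to be tested, with 5 to 15 counts in naive libraries, 23 and 221 in control treated and 83 and 63 in Sox2Hi treated ones. Of the receptors and kinases, 6 of 7 tested were higher with treatment in control and 2 of 7 in Sox2Hi grafts. All 8 tested transcription factors and regulators were higher in both. Irf1, an interferon-induced activator of Gbp genes, gave treatment log2 fold changes of 1.56 (SE 0.252) in control and 1.502 (SE 0.252) in Sox2Hi grafts, with edgeR adjusted p = 0.000698 and 0.00437. Irf8 gave 0.61 (adjusted p = 0.0395) and 0.83 (adjusted p = 0.0266).

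All 7 partner GTPases, relatives that act on parasite vacuoles, were higher with treatment in both grafts. Irgm1 gave 2.32 (SE 0.225) in control and 2.11 (SE 0.224) in Sox2Hi grafts, and Igtp 2.18 (SE 0.255) and 1.92 (SE 0.254). Of the 8 inflammasome genes, 7 were higher in both grafts. Nlrp3 gave 0.43 (adjusted p = 0.171) and 0.0785 (adjusted p = 0.838). Casp4, the caspase that GBPs expose to bacterial lipopolysaccharide, gave 2.10 (SE 0.195) and 1.64 (SE 0.195), and the DNA sensor Aim2 1.22 (SE 0.254) and 0.98 (SE 0.255). Since 24.1% and 15.1% of all genes were called higher, and several of these genes are known from earlier results of these libraries, their direction is no independent evidence.

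Between grafts in treated libraries, 4 of the 30 list genes tested (13.3%) were called lower, against 5.87% of all genes. Irgm1 gave -0.80 (SE 0.248, adjusted p = 0.0442), Casp4 -0.87 (SE 0.217, adjusted p = 0.0203), Casp1 -0.91 (SE 0.192, adjusted p = 0.0119) and Il18 -1.01 (SE 0.323, adjusted p = 0.0489). Irf1 gave -0.22 (adjusted p = 0.608), Irf8 0.34 (adjusted p = 0.364), Igtp -0.53 (adjusted p = 0.203) and Aim2 -0.45 (adjusted p = 0.28). In naive libraries 3 of the 30 list genes tested (10%) were called lower, a share near the 11.9% of all genes. They were Nlrc5, Iigp1 and Casp1, at -0.58 (adjusted p = 0.025), -0.77 (adjusted p = 0.0317) and -0.78 (adjusted p = 0.0134). In the interaction edgeR called 0 genes of the 4 lists.

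The 10 genes whose pattern over the 10 libraries was most like the mean pattern of the members were Zbp1, Il18bp, Ube2l6, Fam174a, Ly6i, Irgm1, Tgtp1, H2-T23, Ifi47 and Idnk. Likeness was Pearson's r of log2(CPM + 1) with the mean standardised member value, and ran from 0.995 for Idnk to 0.998 for Zbp1, a sensor of nucleic acids. Of the 10, 6 were also among the 10 most alike by Spearman's rho. Irgm1, Tgtp1 and Ifi47 encode GTPases of the family related to immunity, and Il18bp encodes a soluble inhibitor of interleukin-18. The libraries form treated and naive clusters, so these values carry no p and describe likeness alone. Tgtp1 has a near-identical copy, so its counts are uncertain.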

How the data were processed

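RNA of 10 neutrophil libraries was read in bulk. The authors deposited one table of estimated counts per gene, in whole numbers. The submitters' processing notes name kallisto 0.44.0 and mm10 without a role; strandedness and annotation are not given in the sources used here. Of 55481 entries, 96 that name no mouse gene (at most 0.00277% of a library's counts) were left out. Symbols and coordinates came from GENCODE M21, which matched 55144 identifiers.

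Genes that passed filterByExpr and had a mean of at least 5 CPM (11270) were fitted in edgeR 4.0.16 (R 4.3.3) with TMM factors from those genes, 1 quasi-likelihood model over the 4 groups and Benjamini-Hochberg adjustment over all of them. A call is an adjusted p under 0.05. The common biological coefficient of variation was 0.211. Standard errors and log2 fold changes come from that fit, which was tested on simulated data. Motifs and 31-base words were counted by exact match. Expected background was taken from the median count per kb over 1738 silent receptor genes. DESeq2 1.42.0, limma 3.58.1 and other alternatives are in the closing section. The members and lists were chosen with earlier results of these data known. The genes named outside the family were pathway genes set by rule, 1 of which is not reported here, and the 10 most alike in pattern (no Gm or Rik names). The other list genes called between grafts, and Nlrp3, were named after their values were seen.

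Replicates differed beyond sampling noise (smallest chi-square per degree of freedom 12.5). Libraries with the same title number deviated together in the naive groups (r = 0.276, 0.335 and 0.478), which met the bar for pairing on this check. Ddx3y counts of the naive libraries also went with the title number, at 4 and 6, 3854 and 2814, and 1436 and 1007 in control and Sox2Hi. The main model has no block, and the blocked calls stand beside the naive result. In the treated groups r was -0.0961, and Ddx3y did not go with the title number (8 and 3980, 6618 and 7).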

Additional observations from a re-analysis of the deposited data

Results flagged for a closer look

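The tdTomato reporter sequence, which lies outside the genes tested, was counted in all 10 libraries, with a lowest count of 135. There were no reporter-free control libraries, and a count of 0 would allow up to 3 counts. The labels describe the cells as Tomato+.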

How the results depend on the processing

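All 10 members kept their positive sign with treatment in both grafts under every alternative run. Fewer calls came from a replicate block by title number on the Sox2Hi groups alone, where 5 passed. Under the all-gene scaling, every gene with a count and library totals only, the treatment median was 3.93, 4.06 and 2.81 in control and 2.44, 2.34 and 2.37 in Sox2Hi grafts. With single libraries left out it ran from 2.99 to 3.84 and from 2.64 to 2.97.

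For naive grafts the median was -0.18, -0.0691 and -0.29 under the all-gene scaling, every gene with a count and limma-voom, and -0.73 to -0.25 with single libraries left out. Gbp6 turned to 0.0237, 0.116 and 0.0056 under those 3, Gbp10 to 0.089 with every gene, and Gbp4 to 0.0061 with limma-voom. The calls were 1 with limma-voom, 0 to 1 with single libraries left out, and 2, 4 and 2 under the replicate block by title number, that block on the naive groups alone (where Gbp2b was filtered out), and the replicate block by description number.

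For treated grafts 8 members passed under the all-gene scaling, every gene with a count, DESeq2 and the replicate block by title number, 3 with the groups compared alone and with the replicate block by description number, 2 with background subtracted, and 0 to 6 with single libraries left out. The share of all genes called lower was 5.03% with every gene and 0.383% to 8.25% with single libraries left out; the other shares stand beside the result. The median was -1.28, -1.40 and -0.54 under the all-gene scaling, every gene and library totals, -0.60 under the description block, and -1.23 to -0.72 with single libraries left out. With library totals Gbp5 and Gbp3 turned to 0.0488 and 0.0374, and under the description block Gbp5 to 0.0441.

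For the interaction 6 passed under the all-gene scaling, 7 with every gene, 2 in DESeq2, and 1 each with RLE factors, limma-voom, and all 29648 filtered genes tested with the factors of the main model. The shares of all genes called lower were 16.2%, 9.59%, 15.1%, 10.9%, 5.85% and 1.96% in that order. With single libraries left out 0 to 2 members passed, with shares of 0.588% to 8.12%. The median was -1.13, -1.36, -0.76 and -0.0668 under the all-gene scaling, every gene, limma-voom and the description block, and -0.80 to -0.12 with single libraries left out. Gbp5 and Gbp3 turned to -0.49 and -0.56 (all-gene) and -0.72 and -0.78 (every gene), and Gbp3 to -0.14 (limma-voom). Gbp7 and Gbp9 turned to 0.0695 and 0.035 (library totals), Gbp7, Gbp2 and Gbp9 to 0.061, 0.0816 and 0.0637 (description block), and Gbp7 to 0.0129 (background subtracted). With single libraries left out Gbp9 ran from -0.63 to 0.0842, Gbp5 from -0.19 to 0.57, Gbp3 from -0.11 to 0.43, Gbp7 from -0.47 to 0.079 and Gbp2 from -0.78 to 0.13. The cause of these changes was not tested. The chromosome 5 share in control treated libraries was 32.4% with the longest transcript as length. A Ddx3y covariate, added after the data were seen, left 4 members called in treated grafts, where 5.19% of all genes were called lower. It left 0 in the naive and interaction tests, where 10.8% and 2.54% were. The 2 libraries of each treated group limit the precision. A fit that leaves out 1 of them has a single library in that group, with a spread taken from the other groups alone.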
